A study of Mus musculus with 10 samples.

Results

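The genes described are 10 enzymes that attach glucuronic acid or sulfate to small molecules. They comprise 5 UDP-glucuronosyltransferases (*Ugt1a1*, *Ugt1a7c*, *Ugt1a9*, *Ugt2b5* and *Ugt2b34*) and 5 cytosolic sulfotransferases (*Sult1a1*, *Sult1b1*, *Sult1d1*, *Sult2b1* and *Sult6b2*). They are 10 of the 35275 gene IDs in the deposited counts, all 10 were found by symbol, and all 10 were among the 15610 genes kept by a filter on low counts. The genes were chosen from their measured values in the comparison of WB-KO with WT mice described here. Their levels and fold changes in that comparison are therefore a description, and no p-value is given for them.

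The RNA-seq data hold 1 library from each of 5 WT and 5 WB-KO mice, of tissue that the study names as proximal small intestine. Markers of proximal enterocytes were lower and ileal markers higher in the WB-KO libraries, as given below. The position of the segments was not tested. No treatment besides the genotype is given, and the sample labels give an age of 8 to 10 weeks for both groups, where the methods of the study give a wider range with older mice and name both sexes for its experiments. WB-KO mice lack the zinc transporter *Zip14* (*Slc39a14*) in the whole body according to the methods of the study, the labels say only KO, and the series title names a deletion in enterocytes. WT mice are of the same strain, and both genotypes came from crosses of heterozygotes. The tissue was a whole segment, so that fewer cells of a type and less RNA per cell cannot be told apart.

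Glucuronidation and sulfation are the main conjugation reactions of phase II metabolism. UGT enzymes sit in the membrane of the endoplasmic reticulum and use UDP-glucuronic acid, while SULT enzymes are cytosolic and use the activated sulfate PAPS. In enterocytes both families meet drugs, dietary phenols, steroids, bilirubin and bile acids before these reach the portal blood, and the conjugates leave the cell through ABC transporters.

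Totals ranged from 16729787 to 20819678 counts in WT libraries and from 17118742 to 19414828 in WB-KO libraries. Levels are given as CPM, the counts scaled to the same library total with TMM factors. *Slc39a14*, the gene named as deleted, had 260.4 ± 62.5 CPM in WT and 102 ± 32.9 CPM in the WB-KO group (SD, n = 5 each), with 160.1 CPM in WB-KO replicate 1 and at most 93.8 CPM in the other WB-KO libraries. Every WB-KO library thus kept counts of it, at least 78.5 CPM, and counts per gene do not show which exons they came from. The groups also differed in what the segments contained. The summed level of 10 smooth muscle markers was between 1629 and 2674 CPM in WT and between 3600 and 10596 CPM in WB-KO libraries, and 9 of the 10 were past the threshold as higher. The sum of 8 markers of proximal enterocytes was between 9254 and 17664 CPM in WT and between 222 and 1624 CPM in WB-KO libraries, and the sum of 7 ileal markers was between 669 and 1504 CPM and between 4012 and 11275 CPM. The 10 general epithelial markers summed to between 15154 and 17431 CPM in WT and between 16818 and 24434 CPM in WB-KO libraries. These markers moved with the groups, and their part in the results below was not tested. The labels give no sex. *Xist*, the RNA of the inactive X chromosome, was at least 309 CPM in every library, and each of 4 Y-linked genes had at most 1 count in any library.

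The *Ugt1a* genes share part of their sequence, and the junctions show where a read can be assigned. Each *Ugt1a* gene has its own first exon, which encodes the substrate-binding part of the enzyme and is spliced to 4 exons used by all 9 genes of the locus. The lines give the last 30 bases of the first exon in lower case and the first 30 bases of the shared second exon in capitals, 5′ to 3′ on the plus strand, from GENCODE M21 transcripts. They are shown because reads that lie within the capitals alone fit every enzyme of the locus.
*Ugt1a1*: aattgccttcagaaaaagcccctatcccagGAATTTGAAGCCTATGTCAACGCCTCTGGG
*Ugt1a7c*: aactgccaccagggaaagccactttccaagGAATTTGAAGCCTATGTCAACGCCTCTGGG
*Ugt1a9*: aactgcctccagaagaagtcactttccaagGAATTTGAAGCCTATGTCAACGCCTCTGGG
The shared exons lie on chromosome 1 of GRCm38 at 88215044 to 88215175, 88215795 to 88215882, 88216138 to 88216357 and 88218127 to 88218997. The first exon of *Ugt1a1* (88211959 to 88212871) is 2.2 kb before them, that of *Ugt1a7c* (88095064 to 88095978) is 119.1 kb before them, and that of *Ugt1a9* (88070800 to 88071678) is 143.4 kb before them. Over the coding part of their first exons, *Ugt1a7c* and *Ugt1a9* are 81.1% identical, with no identical run above 53 bases. *Ugt1a7c* is also annotated with 998 exonic bases at the 3′ end that no other gene of the locus has. In the first exon of *Ugt1a1*, 528 of 913 bases are overlapped by the antisense gene *Gm20528*, which had 0 counts in all libraries.

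**Figure D1:**
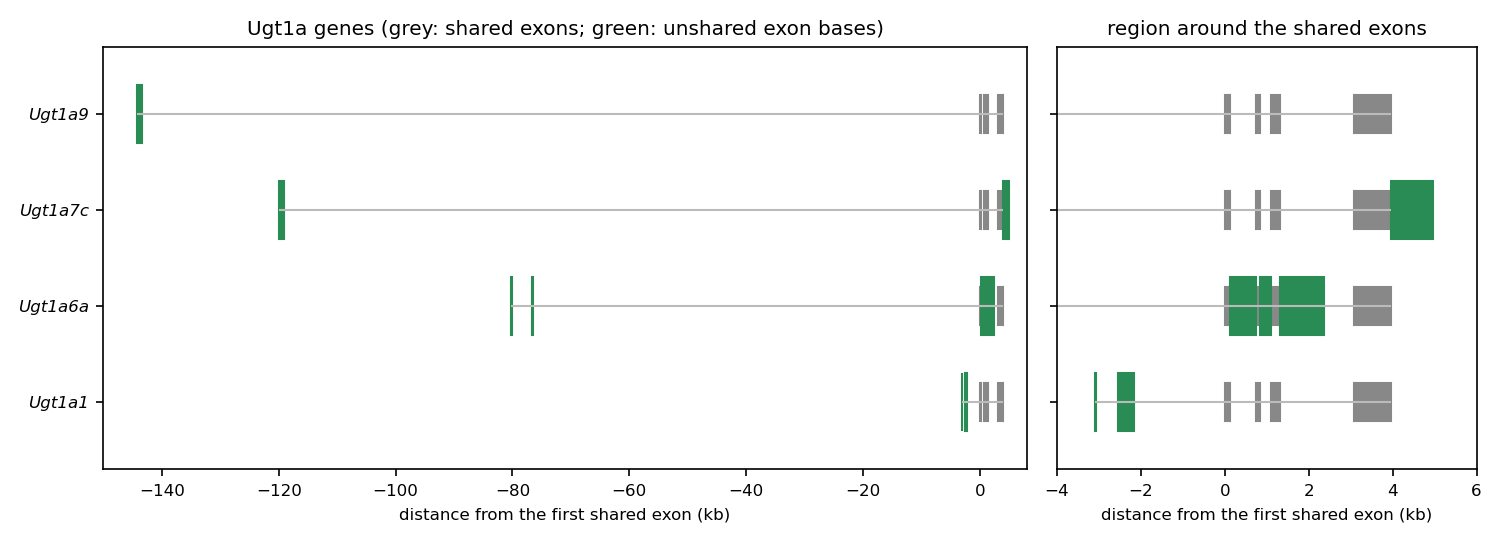
Exons of 4 *Ugt1a* genes, drawn to scale as distance in kb from the first shared exon, for the whole locus (left) and around the shared exons (right). Grey boxes are the 4 shared exons and green boxes are exonic bases annotated for that gene alone, which lie 143.4 kb away for *Ugt1a9* and 2.2 kb away for *Ugt1a1*; the green boxes of *Ugt1a6a* near the shared exons are stretches between them that are annotated as exon for it.

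All 3 *Ugt1a* genes were lower in every WB-KO library than in any WT library. Of all genes tested 10.8% had such a gap, and these 3 genes share exons and were chosen on this comparison. *Ugt1a7c*, an enzyme of the phenol-conjugating branch of the family, held most of the *Ugt1a* counts, from 66.6% to 88.6% in WT and from 63.9% to 90.2% in WB-KO libraries. In WT replicates 1 to 5 it had 162.6, 167, 201, 54.9 and 118 CPM, and in WB-KO replicates 1 to 5 it had 38.1, 53.4, 25.4, 7.67 and 37.8 CPM. The lowest WT library and the highest WB-KO library were next to each other, so that the groups were separated by a narrow gap. The fitted log2 fold change was -2.12 (standard error 0.46). At the 3′ end 998 bases are annotated for *Ugt1a7c* alone. Other *Ugt1a* transcripts that run into these bases would add to the counts and the share of *Ugt1a7c*, which was not tested.

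*Ugt1a1*, the enzyme that conjugates bilirubin, had 10.4, 16.5, 16.2, 14.9 and 16.2 CPM in WT replicates 1 to 5 and 8.84, 3.31, 1.62, 1.76 and 3.36 CPM in WB-KO replicates 1 to 5. WT replicate 1 was the lowest of its group and WB-KO replicate 1 the highest of its group, and these libraries lay close together. This is a log2 fold change of -1.98 (standard error 0.41). *Ugt1a9*, which conjugates bulky phenols, had 2.54, 6.70, 24.1, 3.24 and 0.897 CPM in WT replicates 1 to 5. It had 0.225 CPM in WB-KO replicate 1 and 0.0477 CPM in WB-KO replicate 4, and no count in WB-KO replicates 2, 3 and 5. Together the WT libraries held 642 counts of *Ugt1a9* and the WB-KO libraries 5. A library without a count may hold up to 3 counts at 95% confidence, which was at most 0.162 CPM in those 3 libraries. WT replicate 3 alone was far above the rest of its group, with a WT mean of 7.49 ± 9.52 CPM (SD, n = 5). The fitted log2 fold change of -6.98 (standard error 1.20) rests on the 5 WB-KO counts. It was -8.58 without WB-KO replicate 1, which held most of these counts, -5.81 without WT replicate 3, and -4.0 and not past the threshold with the epithelium score described below as a covariate.

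Reads of the shared exons were not counted for every *Ugt1a* gene, since *Ugt1a10*, which has the same 4 exons, had 0 counts in all 10 libraries. Of the other *Ugt1a* genes only *Ugt1a6a*, another phenol-conjugating enzyme, passed the filter. It had 9.56 ± 2.33 CPM in WT and 2.58 ± 0.623 CPM in the WB-KO group (SD, n = 5 each), a log2 change of -1.89 (standard error 0.22, adjusted p = 0.000353 in edgeR's test), without overlap between the groups. *Ugt1a2*, *Ugt1a5*, *Ugt1a6b* and *Ugt1a8* were counted too rarely for the test. Of the exonic bases annotated for *Ugt1a6a* alone, stretches of 127 and 95 lie before the shared exons. Stretches of 619, 255 and 1046 bases lie between the shared exons, where no other *Ugt1a* gene has an exon. Reads from unspliced RNA of the other genes could therefore have been counted for *Ugt1a6a*. Reads of *Ugt1a7c* and *Ugt1a9* could also have been counted for each other. Neither was tested.

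The *Ugt2b* genes do not share exons, but they share a cluster on chromosome 5 with *Sult1b1* and *Sult1d1*. From the start of *Ugt2b34* at 86889767 to the end of *Sult1d1* at 87569027 the cluster spans 679 kb, and 4 of the 10 genes lie in it. *Ugt2b34* (minus strand, 86889767 to 86906937) had the highest level per length of the 10 genes, 199.8 CPM per kb of exon in WT and 80.7 CPM per kb in WB-KO mice. The levels per library were 901, 987, 937, 667 and 815 CPM in WT replicates 1 to 5 and 530.3, 374, 302, 228 and 307 CPM in WB-KO replicates 1 to 5. Every WB-KO library was below every WT library, with WB-KO replicate 1 the nearest. The log2 fold change was -1.31 (standard error 0.21).

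*Ugt2b5*, a steroid- and phenol-conjugating enzyme (minus strand, 87124960 to 87140318), had 33.3, 68.1, 109, 14.7 and 23.4 CPM in WT replicates 1 to 5 and 21.6, 25.3, 10.7, 21.2 and 17.3 CPM in WB-KO replicates 1 to 5. The groups overlapped. WT replicates 4 and 5 were as low as the WB-KO libraries, and only WB-KO replicate 3 was below all WT libraries. The log2 fold change of -1.37 (standard error 0.48) was not past the threshold by edgeR and was called lower by DESeq2 (-1.38). Its coding sequence is 97% identical to that of *Ugt2b38*, with an identical run of 443 bases, and 94.7% identical to that of *Ugt2b37*, so that counts among these copies are uncertain. *Ugt2b37* and *Ugt2b38* had at most 0.779 CPM in any library. *Ugt2b34* is between 72.7% and 75.8% identical to the other *Ugt2b* genes.

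*Sult1b1* (minus strand, 87513339 to 87538195), which conjugates phenols and thyroid hormone, had 472, 398, 365, 334 and 351 CPM in WT replicates 1 to 5 and 252, 150.4, 97.2, 150.4 and 160.2 CPM in WB-KO replicates 1 to 5. Again no library overlapped between the groups, and WB-KO replicate 1 was the highest of its group. On the log2 scale the fitted change was -1.25 (standard error 0.22). *Sult1d1* (minus strand, 87554645 to 87569027), which acts on catecholamines and other amines, had 306, 306, 251, 218 and 254 CPM in WT replicates 1 to 5. Its levels in WB-KO replicates 1 to 5 were 274, 185, 112, 86.9 and 144 CPM. WB-KO replicate 1 lay within the WT range and the other 4 below it. The log2 fold change was -0.73 (standard error 0.27), not past the threshold by edgeR, and -1.02 and past it without WB-KO replicate 1. DESeq2 called it lower with all libraries (-0.75).

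Between the ends of this cluster GENCODE M21 places 27 other genes, 9 of them protein-coding, and 3 of the 7 found in the counts passed the filter. Of these, *Ugt2a3* and *Ugt2b35* were called lower, none was called higher, and *Ugt2b36* was not past the threshold, where 13.9% of all genes tested were lower and 16% higher. *Ugt2a3*, a transferase abundant in intestine, had 151 ± 11.6 CPM in WT and 10.3 ± 19.2 CPM in the WB-KO group (SD, n = 5 each), a log2 change of -3.88 (standard error 1.11, edgeR's adjusted p = 0.0236). Of the WB-KO libraries, replicate 1 held 44.5 CPM and the rest between 0.216 and 5.77 CPM. Its log2 fold change was -6.39 without WB-KO replicate 1, -3.57 without WB-KO replicate 3 or 4 and -5.98 with the replicate number as a block, and it was -1.06 with the smooth muscle score and -5.36 with the epithelium score, neither past the threshold. *Ugt2b35* had 37.8 ± 15.6 CPM in WT and 9.33 ± 5.56 CPM in WB-KO mice (log2 fold change -2.02 with standard error 0.46, edgeR's adjusted p = 0.0088). With the smooth muscle and epithelium scores it was at -0.077 and -1.8, and its call was lost in both fits. *Ugt2b36* had 13.8 CPM in WT and 10.5 CPM in WB-KO mice on average (log2 fold change -0.39 with standard error 0.37, edgeR's adjusted p = 0.442), and WB-KO replicate 1 was above all WT libraries.

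*Sult6b2*, a sulfotransferase whose substrates are not well known, is a minus-strand gene (chromosome 6, 142785204 to 142804502). It had the widest range of the 10 genes within WT mice. In WT replicates 1 to 5 it had 9.91, 181, 83.9, 1.10 and 2.86 CPM. In WB-KO replicates 1 to 5 it had 0.0563, 0.420, 0.756, 0.334 and 0.0525 CPM. The highest WT library was 165 times the lowest, and WT replicate 4 was only a little above the highest WB-KO library. The log2 fold change was -7.39 (standard error 1.53), from 4541 counts in WT and 31 in WB-KO mice, and most of the WT counts came from replicates 2 and 3. With 1 library left out at a time it lay between -7.96 without WB-KO replicate 3 and -6.21 without WT replicate 2. With the smooth muscle and epithelium scores described below as covariates it was -3.81 and -1.73, neither past the threshold.

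*Sult1a1*, the main phenol sulfotransferase, was the only one of the 10 called higher. It is a minus-strand gene (chromosome 7, 126672865 to 126676432). It had 5.09, 6.63, 5.43, 5.61 and 4.54 CPM in WT replicates 1 to 5 and 7.04, 36.7, 9.34, 21.8 and 6.61 CPM in WB-KO replicates 1 to 5. WB-KO replicates 2 and 4 were far above the rest, and WB-KO replicate 5 lay just within the WT range. The log2 fold change was 1.58 (standard error 0.45), and it was not past the threshold without WT replicate 1, 3 or 5. The colonic marker *Car1*, a carbonic anhydrase, was highest in the same libraries, with 1172 CPM in WB-KO replicate 2 and 11.3 CPM in WB-KO replicate 4, against at most 0.54 CPM in the other 8 libraries. The whole list of 4 colonic markers summed to between 17.2 and 54.7 CPM in WT and between 32 and 1298 CPM in WB-KO libraries. Its part in the level of *Sult1a1* was not tested. *Sult2b1*, which sulfates cholesterol and other 3-hydroxysteroids, is a minus-strand gene (chromosome 7, 45729983 to 45784669). It differed least, with 160 ± 13.5 CPM in WT and 143 ± 22.3 CPM in the WB-KO group (SD, n = 5 each). The groups overlapped, and WB-KO replicates 2 and 3 were below all WT libraries. Its fitted log2 change was -0.16 (standard error 0.12).

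**Figure D2:**
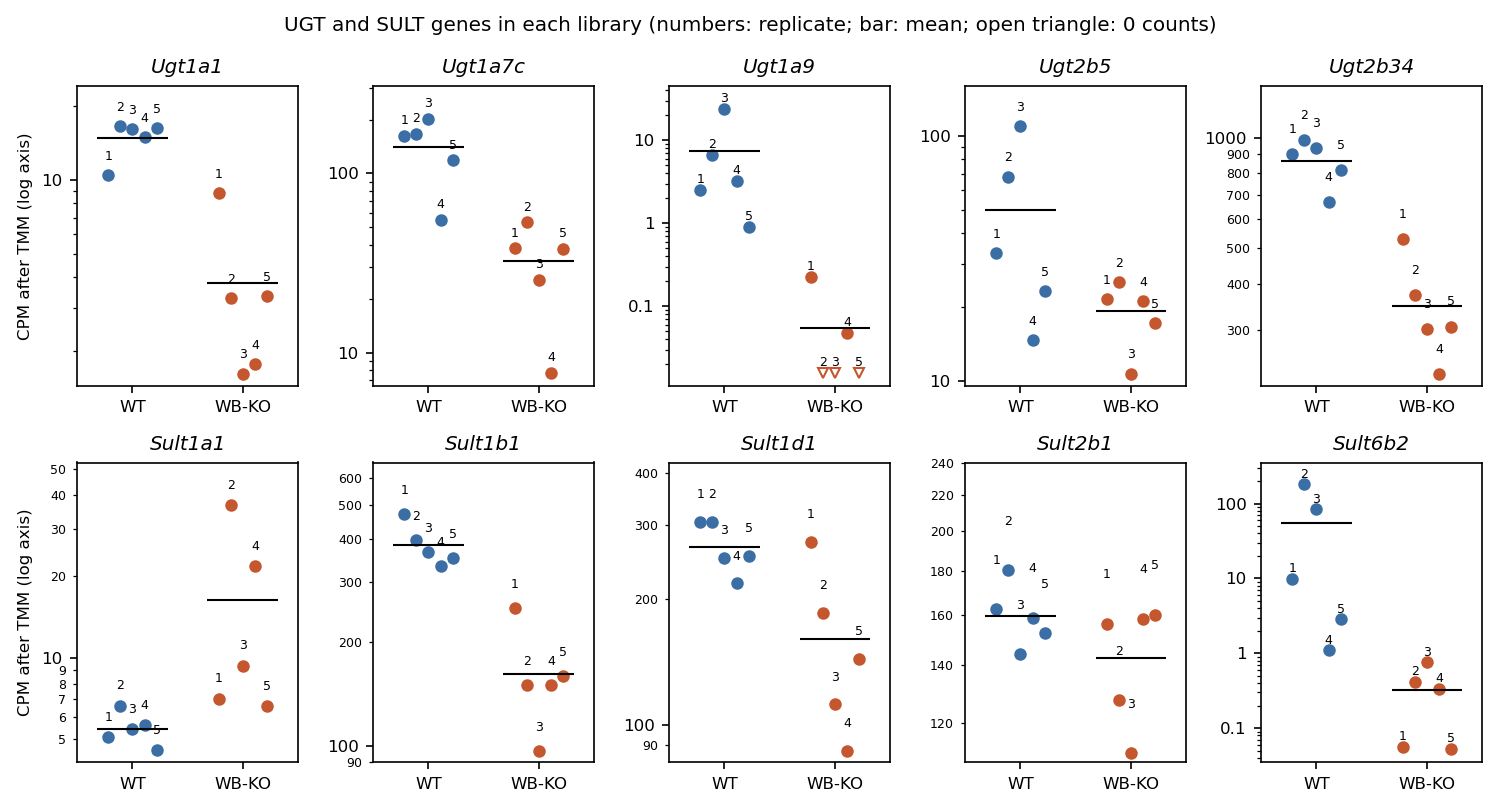
Levels of the 10 genes in each library, in CPM after TMM scaling on a log axis that differs between panels, with the replicate number above each point and a bar at the group mean. In 6 panels all WB-KO points (orange) lie below all WT points (blue), in the *Sult1a1* panel 2 of 5 WB-KO points stand far above the rest, and 3 WB-KO libraries have 0 counts of *Ugt1a9* (open triangles, drawn at the lower edge).

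By edgeR's quasi-likelihood test, 6 of the 10 genes were called lower, where 13.9% of all genes tested were lower. Of the 10 genes 1 was called higher, where 16% of all genes tested were higher. The groups did not overlap, with WB-KO lower, for the same 6 genes, where 10.8% of all genes tested had such a gap. For 0 of the 10 did every WB-KO library lie above every WT library, where 10.2% of all genes tested had this gap. The median log2 fold change of the 10 genes was -1.34 and that of all genes tested 0.03. Since the genes were picked on this comparison, nothing is read from these shares. Of all calls 53.5% were higher after TMM scaling and 69.4% after scaling by library size only. With the mean log2 CPM of the smooth muscle markers as a covariate, 0 of the 10 genes were past the threshold by edgeR, with 1 lower at an unadjusted p under 0.05. The score was between 6.69 and 7.46 in WT and between 8.06 and 9.56 in WB-KO libraries, without overlap, so that it and the genotype cannot be told apart. With it the log2 fold change was -0.15 for *Ugt1a7c*, -0.50 for *Ugt2b34*, -0.77 for *Sult1b1*, 0.39 for *Sult1d1*, -7.11 for *Ugt1a9* and 1.69 for *Sult1a1*, none of them past the threshold. With the mean log2 CPM of the epithelial markers as a covariate, 3 of the 10 were called lower, *Ugt1a1* (-2.52), *Ugt2b34* (-1.42) and *Sult1b1* (-1.44), and *Sult1a1* (2.54) was called higher. *Ugt1a7c* at -2.20, *Ugt1a9* at -4.0 and *Sult6b2* at -1.73 were not past the threshold in that fit, and *Ugt2b5*, not called without the score either, moved to -0.097.

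**Figure D3:**
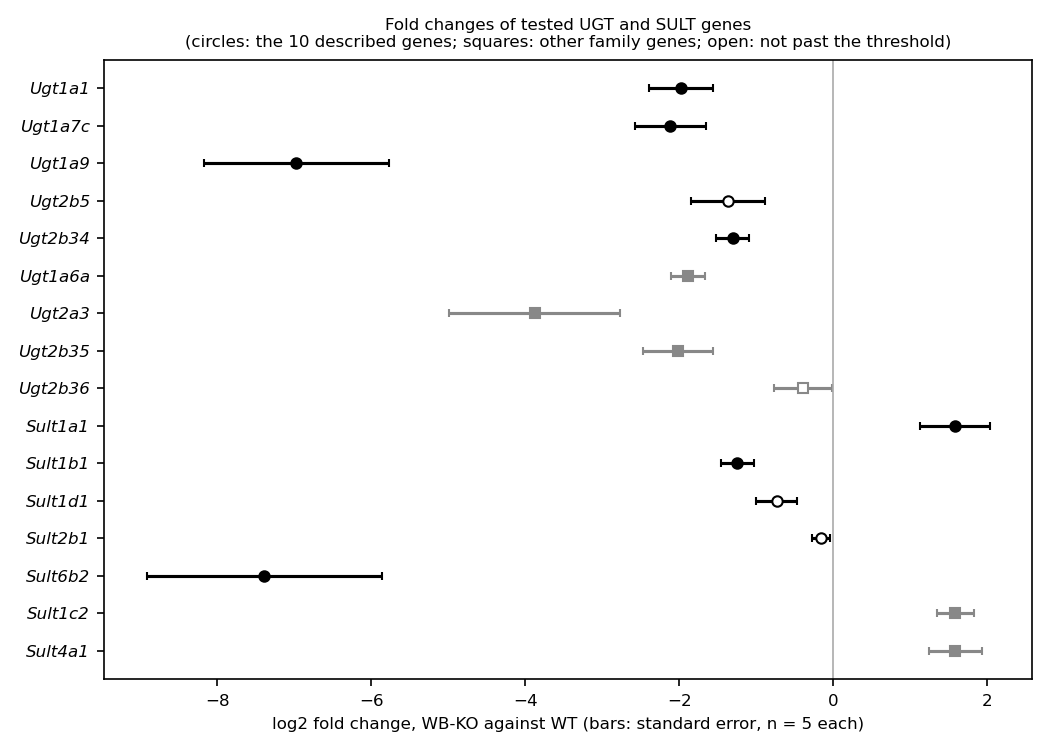
Log2 fold changes of WB-KO against WT mice with standard errors (n = 5 each) for the 10 genes (black circles) and for the 6 other UGT and SULT genes that were tested (grey squares), with open symbols for those not past the threshold. The points reach from -7.39 for *Sult6b2* to 1.59 for *Sult1c2*, and the widest bars belong to *Sult6b2*, *Ugt1a9* and *Ugt2a3*.

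Levels can be compared between genes only per length of exon. After *Ugt2b34*, the order among the genes without shared exons in WT mice was *Sult1b1* with 138 CPM per kb, *Sult1d1* with 109, *Sult2b1* with 40.4, *Ugt2b5* with 26.8, *Sult6b2* with 25.8 and *Sult1a1* with 3.62 CPM per kb. In WB-KO mice *Sult1d1* with 65.3 CPM per kb came before *Sult1b1* with 58.3 CPM per kb. *Sult2b1* with 36.1 CPM per kb was next, *Sult1a1* with 10.8 and *Ugt2b5* with 10.4 CPM per kb were nearly level, and *Sult6b2* was last with 0.15 CPM per kb. Neighbours in these orders overlapped in their libraries, except *Sult1d1* and *Sult2b1* in WT mice and, in WB-KO mice, *Sult2b1* with *Sult1a1* and *Ugt2b5* with *Sult6b2*. Per kb of exonic bases that no other annotated gene overlaps, *Ugt1a7c* had 73.5 CPM in WT and 16.9 CPM in WB-KO mice, *Ugt1a1* 38.6 and 9.81 CPM, and *Ugt1a9* 8.53 and 0.0621 CPM. The bases used for *Ugt1a7c* include the 998 at its 3′ end. Those used for *Ugt1a1* are the 385 outside *Gm20528*, and per kb of its whole first exon it had 16.3 and 4.14 CPM. The 5 UGT genes together had between 754 and 1288 CPM in WT and between 258 and 599 CPM in WB-KO libraries. The 5 SULT genes together had between 718 and 1071 CPM in WT and between 330.3 and 690 CPM in WB-KO libraries.

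The genes differed in how evenly WT mice expressed them. For *Sult6b2*, *Ugt1a9* and *Ugt2b5* the highest WT library was at least 7 times the lowest (165, 26.9 and 7.41 times), which held for 2.1% of all genes tested. For the other 7 the ratio was at most 3.67, that of *Ugt1a7c*. WT replicates 2 and 3 had the highest levels of all 3 uneven genes. The order of the WT libraries in *Sult6b2*, replicate 2 first, then 3, 1, 5 and 4, was also that of *Ugt2b34* and, among the listed genes, of *Papss2*, *Ahr*, *Gata6*, *Onecut2* and *Apoa4*, and it was found in 1.96% of all genes tested. Of the 8 markers of proximal enterocytes, 6 were highest in WT replicate 2 or 3, while *Lct*, the lactase of the brush border, was between 3363 CPM in WT replicate 2 and 3783 CPM in WT replicate 5, and *Cybrd1*, a duodenal iron reductase, was also highest in WT replicate 5. *Onecut2*, a transcription factor of the duodenum, had 124 and 91.6 CPM in WT replicates 2 and 3, 68.1 CPM in WT replicate 1 and at most 20.2 CPM in WT replicates 4 and 5. *Pdx1*, a factor of duodenum and pancreas, had 14.7 and 6.24 CPM in WT replicates 2 and 3, less in WT replicate 1 and at most 0.22 CPM in WT replicates 4 and 5. In the WB-KO group *Onecut2* was at most 1.52 CPM and *Pdx1* at most 0.572 CPM. With 5 libraries a group no correlation is given, and whether the position of the segment accounts for the spread was not tested.

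**Figure D4:**
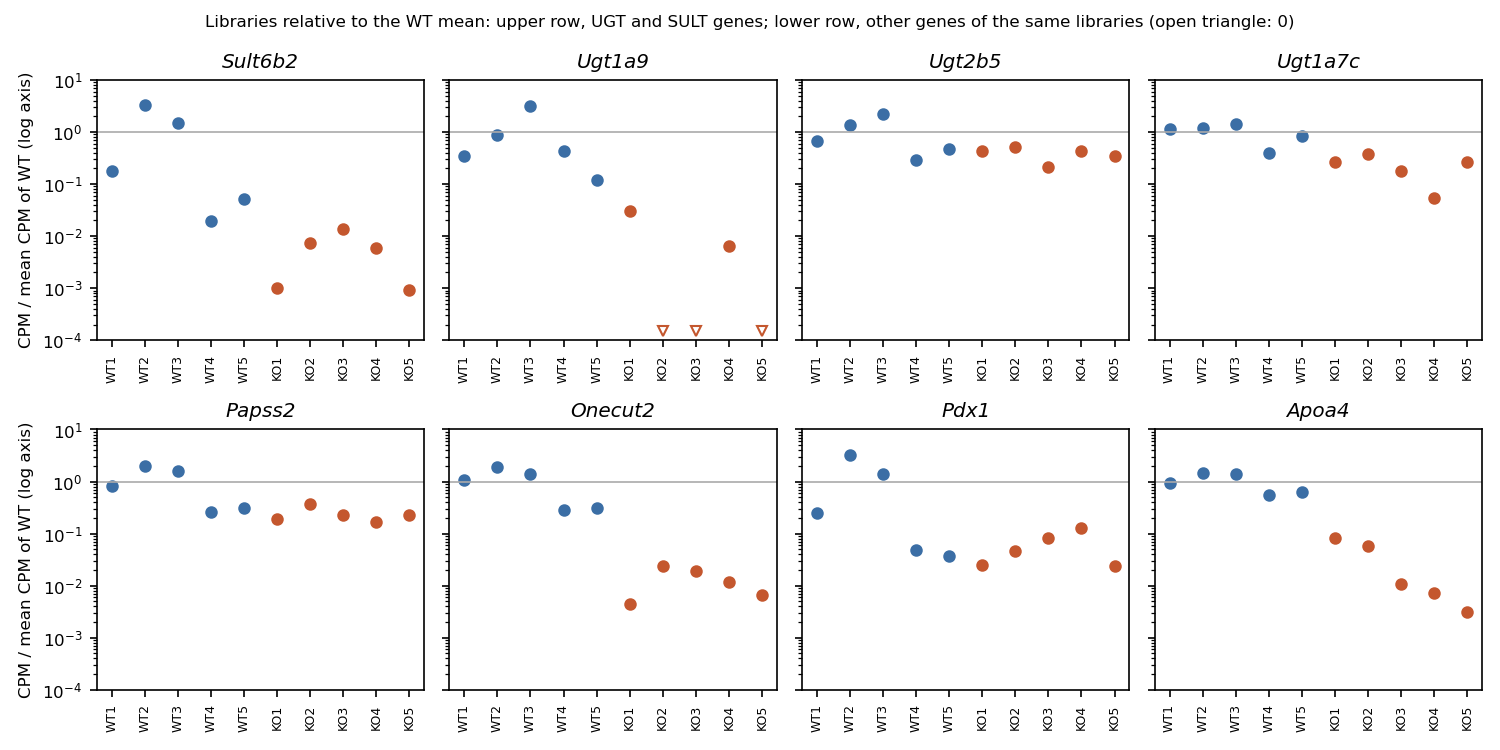
Level of each gene in each library divided by its WT mean, on a log axis (blue, WT replicates 1 to 5; orange, WB-KO replicates 1 to 5; open triangles, 0 counts). WT replicates 2 and 3 are highest for *Sult6b2*, *Ugt1a9* and *Ugt2b5* in the upper row, and for *Papss2*, *Onecut2*, *Pdx1* and *Apoa4* in the lower row, which were chosen after their values were seen; *Lct* and *Cybrd1*, not drawn, were highest in WT replicate 5.

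Among WB-KO libraries, replicate 1 was the highest of its group for 5 of the 10 genes and the lowest for none. It was also the WB-KO library with the highest CPM of *Slc39a14* and *Gata4*, and its level of *Hoxb9*, a gene of posterior position, was 0.282 CPM against between 42.9 and 62.3 CPM in the other WB-KO libraries. In *Fabp6*, the ileal bile acid binding protein, it stood with the other WB-KO libraries, with 3295 CPM against between 2307 and 9058 CPM in those and at most 1.74 CPM in WT. Of the other ileal markers, *Slc10a2* (90.3 CPM), *Slc51a* (628 CPM) and *Slc51b* (39.7 CPM) were lowest of the WB-KO group in replicate 1, though above every WT library. *Cubn* was highest there (1038 CPM), and *Fgf15* and *Amn* lay between the other WB-KO libraries. WB-KO replicate 3 alone was the lowest of its group for 4 of the 10 genes, and for *Ugt1a9* it shared a count of 0 with WB-KO replicates 2 and 5.

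Other members of both families were mostly counted too rarely for the test or not at all. Of 33 further UGT and SULT genes, 32 were found in the counts and 6 passed the filter, of which 3 were lower, 2 were higher and *Ugt2b36* was not past the threshold, where 13.9% of all genes tested were lower and 16% higher. Their median log2 fold change was -1.14, and that of all genes tested 0.03. *Sult1c2*, a sulfotransferase of stomach and kidney, had 1.65 ± 0.428 CPM in WT and 4.95 ± 1.13 CPM in the WB-KO group (SD, n = 5 each), a log2 change of 1.59 (standard error 0.24, edgeR's adjusted p = 0.00131). *Sult4a1*, a form found in neurons, had 1.83 ± 0.451 CPM in WT and 5.48 ± 3.01 CPM in WB-KO mice (log2 fold change 1.58 with standard error 0.35, edgeR's adjusted p = 0.00742), with 10.5 CPM in WB-KO replicate 4, the library with the highest smooth muscle score. For both, no WB-KO library was as low as any WT library, and with the smooth muscle score neither was past the threshold (1.47 and -0.033). The 26 untested genes had a group mean of at most 0.782 CPM, and 12 of them had 0 counts in all libraries, among them *Sult1e1*, the estrogen sulfotransferase, and *Sult2a1*, a hydroxysteroid sulfotransferase of liver. The 7 hepatocyte markers summed to between 1.01 and 2.45 CPM in WT and between 1.58 and 22.6 CPM in WB-KO libraries. *Alb*, the defining one, was at most 1.58 CPM in any library. *Tat*, an enzyme of tyrosine breakdown, had at most 0.255 CPM in WT and 0.338, 17.3, 12.7, 5.77 and 18.5 CPM in WB-KO replicates 1 to 5. *Tat* did not pass the filter on low counts, and 1 of the 2 hepatocyte markers that did was called higher.

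Genes of cosubstrate supply and efflux moved in both directions. Of 17 tested genes for cosubstrate supply, deconjugation and efflux, 4 were lower, 5 were higher and 8 were not past the threshold, where 13.9% of all genes tested were lower and 16% higher, and their median log2 fold change was 0.00. On the glucuronide side, *Ugdh*, which makes UDP-glucuronic acid from UDP-glucose, had 495 ± 157 CPM in WT and 193 ± 32 CPM in the WB-KO group (SD, n = 5 each), a log2 change of -1.36 (standard error 0.22, edgeR's adjusted p = 0.00174) without overlap. *Ugp2*, which makes UDP-glucose, had 122 ± 7.16 CPM and 121 ± 6.59 CPM, a log2 fold change within 1 standard error of 0 (standard error 0.08). *Slc35d1*, which carries UDP-glucuronic acid into the endoplasmic reticulum, was not past the threshold at -0.35 (standard error 0.15, adjusted p = 0.0927 by edgeR).

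On the sulfate side, *Papss2*, 1 of the PAPS synthases, had 547, 1351, 1090, 179 and 205 CPM in WT replicates 1 to 5 and between 114 and 249 CPM in WB-KO libraries. WT replicates 4 and 5 lay within the WB-KO range. The fitted log2 change was -2.07 with standard error 0.54 and edgeR's adjusted p = 0.0154, and it was -0.70 with the smooth muscle score and -0.86 with the epithelium score, neither past the threshold. *Bpnt1*, which removes the product left by sulfation, fell from 536 ± 93.8 to 138 ± 36 CPM (log2 fold change -1.96 with standard error 0.19, edgeR's adjusted p = 0.000147), without overlap. *Slc13a1*, the sodium sulfate cotransporter of ileum and kidney, rose from 59.8 ± 40.1 to 381 ± 164 CPM (log2 fold change 2.67 with standard error 0.48, edgeR's adjusted p = 0.00313). The other PAPS synthase, *Papss1*, rose by 0.76 on the log2 scale (adjusted p = 0.0109 by edgeR), from 95.8 to 163 CPM. The sulfate carrier *Slc26a2* (0.57, adjusted p = 0.02) and the Golgi PAPS carrier *Slc35b2* (0.31, adjusted p = 0.0397) were also called higher by edgeR with overlapping groups, and *Slc35b2* lost its call in 7 of the 10 fits that left out 1 library.

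*Abcc2*, the apical pump for glucuronides and other conjugates, fell from 931 ± 228 to 154 ± 108 CPM (SD, n = 5 each), a log2 change of -2.60 (standard error 0.46, edgeR's adjusted p = 0.00276). *Abcg2*, the apical pump for sulfated conjugates and drugs, rose from 128 ± 17.5 to 246 ± 54.5 CPM (log2 fold change 0.95 with standard error 0.16, edgeR's adjusted p = 0.00192). Neither overlapped between the groups. The basolateral pump *Abcc3* had 161 and 96 CPM on average (log2 fold change -0.75, adjusted p = 0.0932 by edgeR), and *Gusb*, the lysosomal β-glucuronidase that removes glucuronic acid, had 34.7 and 34.3 CPM. With the smooth muscle score none of the 17 genes was past the threshold by edgeR (2 lower and 4 higher at an unadjusted p under 0.05), and with the epithelium score *Bpnt1*, *Slc13a1* and *Abcg2* were. *Abcc2* lost its call in both fits, at a log2 change of -1.79 with the smooth muscle score and -2.4 with the epithelium score.

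**Figure D5:**
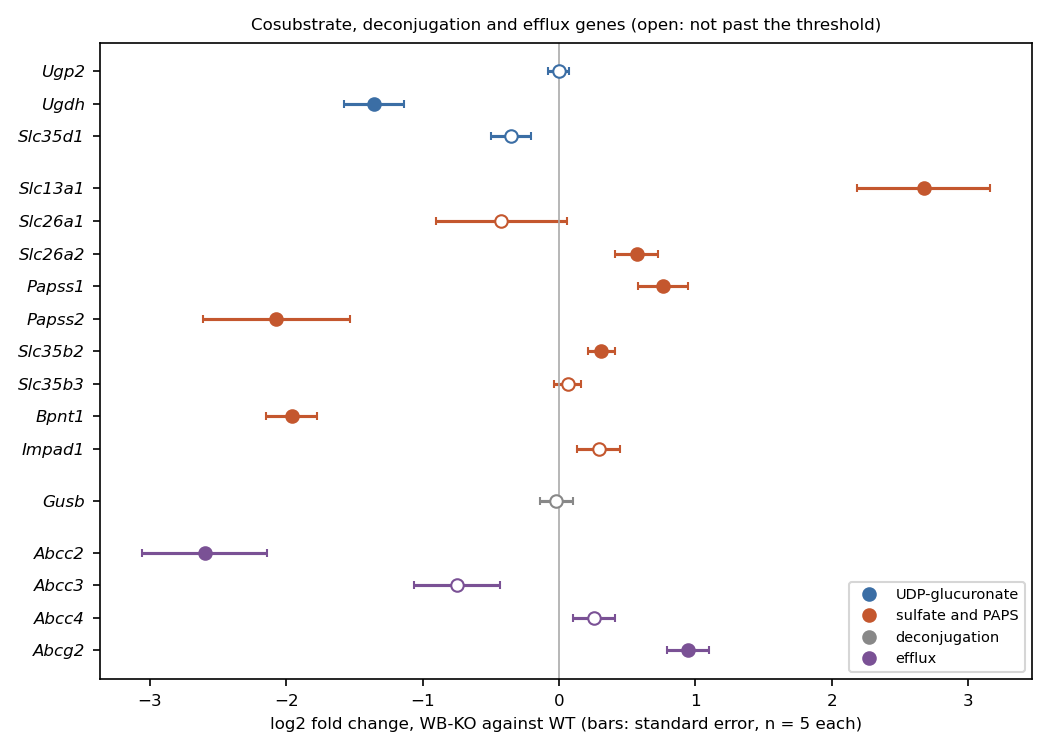
Log2 fold changes with standard errors (n = 5 each) of 17 genes that supply cosubstrates, remove conjugating groups or export conjugates, coloured by role, with open symbols for genes not past the threshold. *Ugdh*, *Papss2*, *Bpnt1* and *Abcc2* lie to the left of 0 and *Slc13a1*, *Slc26a2*, *Papss1*, *Slc35b2* and *Abcg2* to the right.

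Several transcription factors that are known to act on conjugation genes differed as well, and the median log2 fold change of the 14 described was -0.64, against 0.03 for all genes tested. Of 7 xenobiotic-sensing factors, 5 were called lower and none higher, where 13.9% of all genes tested were lower and 16% higher. *Nr1i3*, the constitutive androstane receptor, fell from 55.5 ± 12.8 to 3.45 ± 2.95 CPM (SD, n = 5 each), a log2 change of -4.01 (standard error 0.48, edgeR's adjusted p = 0.000419). With 1 library left out at a time its log2 change lay between -4.62 and -3.81. It was -2.85 and not past the threshold with the smooth muscle score. *Nfe2l2*, the factor of the antioxidant response, fell from 360.1 ± 49.8 to 120 ± 43.1 CPM (log2 fold change -1.59 with standard error 0.21, edgeR's adjusted p = 0.000695). The pregnane X receptor *Nr1i2* (-0.43, adjusted p = 0.0195), the fatty acid receptor *Ppara* (-1.12, adjusted p = 0.0165) and the dioxin receptor *Ahr* (-0.85, adjusted p = 0.0326) were also called lower by edgeR, and *Ahr* was not past the threshold without WT replicate 1, 2 or 3 or WB-KO replicate 5. *Nr1i2* lost its call by library size only, with the replicate block and with either score.

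Of 7 intestinal factors, 3 were lower, 2 were higher and 2 were not past the threshold, where 13.9% of all genes tested were lower and 16% higher. *Gata4*, a factor of the jejunum and duodenum, fell from 189 ± 24.4 to 16.1 ± 24.8 CPM (SD, n = 5 each), a log2 change of -3.56 (standard error 0.95, edgeR's adjusted p = 0.0177), with 59.4 CPM in WB-KO replicate 1 and a log2 change of -5.17 without that library. With the smooth muscle score as a covariate its log2 change was -0.47 and with the epithelium score -4.67, neither past the threshold. *Gata6* (-1.27, adjusted p = 0.00146) and *Hnf4g* (-1.25, adjusted p = 0.00318) were also lower, and the caudal factors *Cdx1* (0.92, adjusted p = 0.000243) and *Cdx2* (0.78, adjusted p = 0.00273) were higher by edgeR. *Hnf4a*, a central factor of the intestinal epithelium, had 861 ± 71.5 and 1039 ± 244 CPM (log2 fold change 0.27, standard error 0.17, adjusted p = 0.234 by edgeR). With the smooth muscle score none of the 14 factors was past the threshold by edgeR (2 lower and 3 higher at an unadjusted p under 0.05), and with the epithelium score *Nr1i3*, *Nfe2l2*, *Ppara*, *Gata6*, *Hnf4g* and *Cdx1* were.

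Promoters of the genes were read from RefSeq (GRCm38.p6), 250 bases before to 50 bases after each start site, and searched on both strands for short motifs of such factors. All 10 genes had a promoter, with 12 windows in all. The GATA site AGATAA was found in 2 of the 12 windows and in 11.2% of all 32851 windows. The CDX site TTTATG was found in 1 of the 12 (11.9% of all), the HNF4 site CAAAGTCCA in 1 of the 12 (0.475% of all) and the TATA box TATAAA in 2 of the 12 (13.6% of all). The HNF4 match lies in window 2 of *Sult1b1*, 25 bases after that start site. Matches of different motifs can share at most a pair of bases at their ends. The lines give the 170 bases before the start site, 5′ to 3′ on the strand of the gene, with matches of AGATAA, or of its reverse complement, in capitals. *Ugt1a9* and *Sult6b2* are shown as the genes nearest to 0 in WB-KO mice and the ones with a GATA site, and *Ugt2a3* as the tested gene of the chromosome 5 cluster with the lowest log2 fold change.
*Ugt1a9* (chr1:88070609-88070778, plus strand): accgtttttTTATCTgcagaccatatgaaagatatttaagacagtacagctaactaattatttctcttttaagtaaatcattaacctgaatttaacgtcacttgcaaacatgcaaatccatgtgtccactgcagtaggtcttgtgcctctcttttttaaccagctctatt
*Ugt2a3* (chr5:87337196-87337365, minus strand): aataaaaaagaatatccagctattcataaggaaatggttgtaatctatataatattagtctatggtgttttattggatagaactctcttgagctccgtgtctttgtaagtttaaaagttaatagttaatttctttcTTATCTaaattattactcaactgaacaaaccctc
*Sult6b2* (chr6:142804467-142804636, minus strand): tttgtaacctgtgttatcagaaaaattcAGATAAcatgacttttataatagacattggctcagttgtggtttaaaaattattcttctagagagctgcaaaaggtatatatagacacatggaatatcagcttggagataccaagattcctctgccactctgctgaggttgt
The site lies 161 bases before the start in *Ugt1a9*, 142 bases before it in *Sult6b2* and 34 bases before it in *Ugt2a3*. *Ugt2b36*, not past the threshold, had 3 matches of AGATAA, while *Ugt1a1*, *Ugt1a7c*, *Ugt2b34* and *Sult1b1*, called lower, had none. A match describes these letters in this window and not binding, and no factor was measured on DNA here.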

How the data were processed

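Total RNA of frozen proximal intestine was made into libraries with a SMARTer mRNA-Seq kit, per the labels. The authors deposited whole-number counts of reads per Ensembl gene ID for each of 10 mice, without normalization. The submitters' processing notes list FastQC 0.11.9, Trimmomatic, HISAT2 2.0.4, SAMtools 1.3.1 and DESeq2 1.14.1 with GRCm38 and mm10, while the sources used here do not give the read counter, the annotation or the use of strand. *Sult1a1* and *Sult2b1* overlap other genes, so that reads may have been counted for either. *Ugt1a1* overlaps the antisense gene *Gm20528*, which had 0 counts. Reads in that overlap may have been counted for *Ugt1a1* or for neither gene. Symbols and positions came from GENCODE M21, and 785 of 35275 IDs had no symbol.

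In R 4.3.3, edgeR 4.0.16 (quasi-likelihood test, filterByExpr with minimum count 10 and minimum total 15, TMM, Benjamini-Hochberg adjustment over 15610 genes, threshold 0.05) compared all 5 WB-KO with all 5 WT libraries. Standard errors are those of the edgeR model, and a log2 CPM had a prior count of 2 added. Intervals and floors cover counting error only. Each library is 1 mouse, and p-values measure the spread between these libraries. Alternatives were DESeq2 1.42.0, RLE or no scaling factors, no filter, a filter on a mean count of 10, robust dispersion, the replicate number as a block, smooth muscle and epithelium scores as covariates, and leaving out each library. The edgeR and DESeq2 steps were tested on simulated counts. Sequences were read with Biopython 1.88.

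The 10 genes and all gene lists were chosen with earlier results of these data known. Named genes are the 10, genes of the pathway and family lists that were called or had a mean of at least 10 CPM in either group, tested genes of the chromosome 5 cluster, and up to 2 abundant genes of a marker list. *Ugt1a2*, *Ugt1a5*, *Ugt1a6b*, *Ugt1a8*, *Ugt1a10*, *Ugt2b37*, *Ugt2b38*, *Sult1e1*, *Sult2a1*, *Gm20528*, *Pdx1*, *Onecut2*, *Apoa4*, *Lct*, *Cybrd1*, *Car1*, *Alb*, *Tat*, *Fabp6*, *Slc10a2*, *Slc51a*, *Slc51b*, *Cubn*, *Fgf15*, *Amn*, *Hoxb9*, *Xist* and genes named as not past the threshold at under 10 CPM were added after their values were seen. *Ugt2a1* and *Sts* were not analysed here. Of the intestinal factors, 1 is not reported here and was left out of the counts. Markers of goblet cells (5 of 7 higher), Paneth cells (0 of 4 called by edgeR, 1 higher at an unadjusted p under 0.05), leukocytes (1 of 6 lower), hepatocytes, pancreas and stomach (1, 0 and 0 of the 2, 1 and 0 tested, higher) were counted as checks of the tissue.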

Additional observations from a re-analysis of the deposited data

Results flagged for a closer look

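Within a group of 5 libraries, single libraries stood apart by Dixon's ratio in 10 of the 92 groups examined (46 genes in WT and in WB-KO mice), and chance marks about 1 in 20 groups. *Ugt1a1* was low in WT replicate 1, at 10.43 CPM against between 14.95 and 16.52 CPM in the other WT libraries, and high in WB-KO replicate 1, at 8.844 CPM against between 1.619 and 3.358 CPM. *Ugt1a9* was high in WT replicate 3, at 24.09 CPM against between 0.8966 and 6.698 CPM, and in WB-KO replicate 1, at 0.2253 CPM against at most 0.04766 CPM, where the values stand for few counts.

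WB-KO replicate 1 was the library that stood apart in 6 of the 10. Besides the *Ugt1a* genes it was high for *Ugt2a3* (44.5 CPM against between 0.2159 and 5.77 CPM), *Bpnt1* (200.1 CPM against between 111.9 and 135 CPM), *Nfe2l2* (195.6 CPM against between 93.48 and 111.3 CPM) and *Gata4* (59.37 CPM against between 0.5719 and 13.85 CPM). In all of these it lay on the side of the WT libraries. *Nr1i2* was high in WT replicate 2, at 168.7 CPM against between 113.8 and 129.7 CPM, and *Slc35d1* in WB-KO replicate 2, at 73.7 CPM against between 55.6 and 60.59 CPM.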

How the results depend on the processing

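The genes called lower or higher depended most on the 2 covariates. With the smooth muscle score, edgeR called 0 of the 10 genes lower and 0 higher (6 and 1 without it), 0 and 0 other UGT and SULT genes (3 and 2), 0 and 0 cosubstrate, deconjugation and efflux genes (4 and 5), 0 and 0 transcription factors (8 and 2), 0 neighbours on chromosome 5 lower (2) and 7 and 10 of all genes tested (2169 and 2491), with 1070 lower and 1132 higher at an unadjusted p under 0.05. With the epithelium score the counts were 3 of the 10 lower, 1 other UGT or SULT gene lower, 1 and 2 cosubstrate genes, 5 and 1 transcription factors, 0 neighbours and 929 and 1606 of all genes. DESeq2 and edgeR without a filter each called 5 other UGT and SULT genes lower, where more genes were tested. DESeq2 called 8 of the 10 genes lower, *Ugt2b5* and *Sult1d1* in addition. Scaling by library size only called 1589 genes lower and 3608 higher and moved the median log2 fold change of all genes from 0.03 to 0.15.

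With 1 library left out at a time, between 6 and 7 of the 10 genes were lower and between 0 and 1 higher, between 3 and 4 other UGT and SULT genes were lower and 2 higher, between 4 and 6 cosubstrate genes were lower and between 3 and 5 higher, between 7 and 9 transcription factors were lower and 2 higher, between 2 and 3 neighbours were lower, and between 1573 and 2563 of all genes were lower and between 1634 and 2944 higher. *Ugt2b5* was past the threshold without WT replicate 4 or 5, *Abcc3* and *Slc35d1* without WT replicate 4, *Ugt2b36* without WB-KO replicate 1, *Arnt* without WB-KO replicate 1 or 2 and *Impad1* without WB-KO replicate 4, while *Slc26a2* lost its call without WT replicate 1 or 2.

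Log2 fold changes that turned were those of *Sult1d1* (0.39), *Sult4a1* (-0.033), *Ugp2* (0.053), *Slc35b3* (-0.12), *Gusb* (0.41), *Abcc3* (0.69), *Rxra* (0.089) and *Ahr* (0.25) with the smooth muscle score, of *Gusb* (0.0029) and *Hnf4a* (-0.21) with the epithelium score, and of *Ugp2* (0.12), *Gusb* (0.11) and *Rxra* (0.051) by library size only. With 1 library left out *Ugp2* lay between -0.055 and 0.021 and *Gusb* between -0.095 and 0.036. The cause of these changes was not tested. By library size only *Nr1i2* (-0.31) and *Ahr* (-0.72) were not past the threshold. Direction and call stayed the same for all 10 genes under RLE, library size only, robust dispersion, no filter and the mean count filter.

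The replicate numbers gave no sign of pairing, with same-number correlations between -0.17 and 0.18 and 1 of 5 above 0.1, and 1 of 5 WT libraries correlated best with its own number. With the replicate block, 7 of the 10 genes were lower and 1 higher, 7 transcription factors were lower, and 1898 and 1950 of all genes were lower and higher. *Sult1d1* (-0.84) and *Abcc3* (-0.76) gained a call under the block and *Nr1i2* (-0.42) lost its call. A Y-linked score was not run, since each Y-linked gene had at most 1 count in any library. Depth limits *Ugt1a9*, which 5 counts over the WB-KO libraries represent.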
